A study of Rattus norvegicus with 24 samples.

Results

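The genes described here encode splicing factors and related nuclear RNA-binding proteins, and they were followed through the transition from meiotic to haploid male germ cells and through ageing. They were chosen by symbol, as every gene measured by a probe set with exactly 1 gene symbol that begins with Srsf, Hnrnp, Sf3a or Sf3b, Snrp, Prpf or Rbm (for Srsf, Prpf and Rbm followed by a digit), with the probe set of highest mean signal taken for each gene. This gave 92 genes of the 14217 measured in that way, with 154 probe sets among 20826. The 6 classes held 11 Srsf genes (one of them the pseudogene symbol Srsf7-ps4), 17 Hnrnp, 9 Sf3a and Sf3b, 10 Snrp, 11 Prpf and 34 Rbm genes.

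The 24 Affymetrix arrays covered 4 groups of 6 samples from Brown Norway rats, whose numbers in the titles were read as 12 rats giving both fractions: round spermatids of aged rats (18 months), round spermatids of young rats (4 months), pachytene spermatocytes of aged rats and pachytene spermatocytes of young rats. Pachytene spermatocytes recombine their paired chromosomes before the meiotic divisions, and the haploid round spermatids arise from those divisions. Both fractions came from enzyme-digested testes by a STAPUT gradient, which separates cells as they sediment, with a stated purity above 83%, so each array also holds RNA of other cells. In such fractions fewer cells of a type and less RNA per cell cannot be told apart.

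Splicing removes introns from pre-mRNA on the spliceosome, which is built from small nuclear ribonucleoproteins (snRNPs) and many further proteins. SR proteins, the Srsf genes, mostly bind exon sequences and help the snRNPs to recognise splice sites, while hnRNP proteins coat the nascent transcript and often oppose that recognition. The testis is known for extensive alternative splicing, and transcription falls silent later in spermatid development, when histones are replaced.

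Marker genes of these germ cell stages mostly followed the labels. All 8 late spermiogenesis markers and all 4 round spermatid markers measured were higher in round spermatids, and 6 of 7 pachytene markers were lower in them while 1 was higher. Among markers of other cells, all 4 peritubular and all 4 macrophage markers were also called higher in round spermatids. No macrophage marker lay above the median level of all genes in any group. Of 4 spermatogonia markers 2 were higher and 1 lower, and of 6 Leydig markers 1 was higher and 3 lower. Sertoli cell markers differed by age: 8 of 10 were lower in aged than in young pachytene fractions, and 6 of 10 in round spermatid fractions. Young rats 1, 10 and 11 were separate from the rest along the main axis of variation of the pachytene arrays (principal component 1, 73.9% of the variance): they lay at -86.33, -47.06 and -44.02, against 16.22 to 39.58 in aged rats and -7.38 to 3.78 in the other young rats. In round spermatids young rat 10 lay at -40.67, with the other young rats at -18.66 to 4.69. Counts are therefore also given without these 3 rats. All levels below are normalized log2 signals, and signals of different probe sets are not compared.

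The first comparison set round spermatids against pachytene spermatocytes. Most splicing factor genes were lower in round spermatids: 62 of 92 fell, 23 rose and 7 did not pass the threshold (limma, adjusted p under 0.05, 12 arrays per cell type). Among all genes 39.1% were called lower and 49.2% higher, so the 67.4% of members that fell lie above that background and the 25% that rose lie below it. Their median log2 difference was -0.41, against 0.06 over all genes. The members were brighter than most genes: 84.8% lay above the median level of all genes in round spermatids and 85.9% in pachytene spermatocytes. Their median levels were 10.16 and 10.65, against 8.40 and 8.37. The shares of all genes were not matched for brightness, and its part in the difference was not tested. A fall of at least 2-fold was called in 23 members (against 10% of all genes), and a rise of at least 2-fold in 4 members, against 10.5% of all genes.

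**Figure D1:**
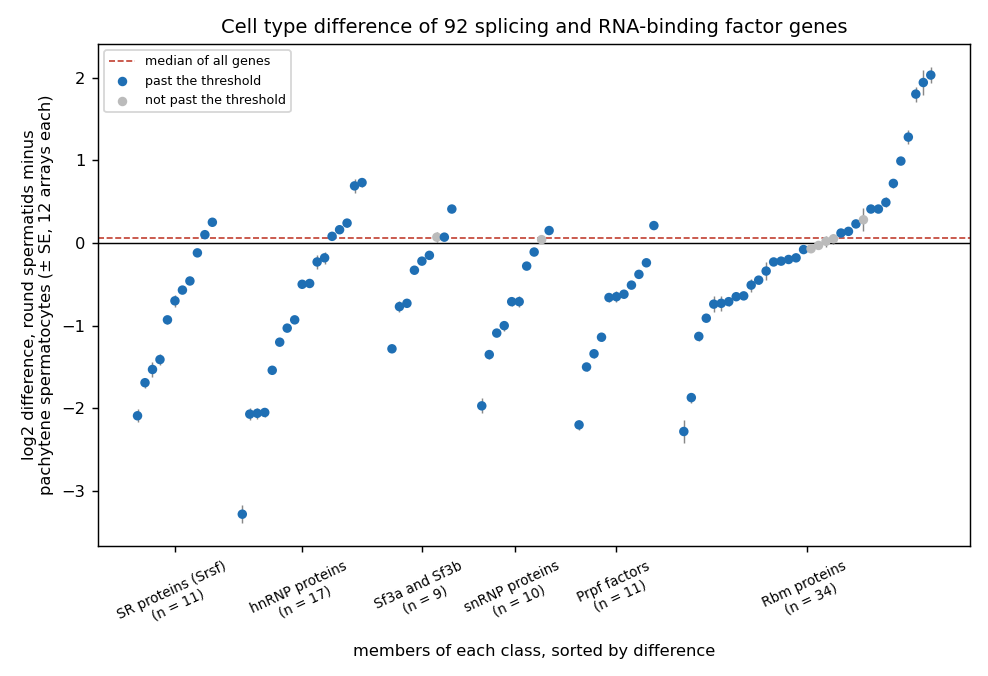
Log2 difference of each of the 92 genes, round spermatids minus pachytene spermatocytes (y axis, ± SE of the fit, 12 arrays per cell type), sorted within the 6 classes (x axis); grey points did not pass the threshold and the dashed line is the median of all genes (0.06). The 4 genes above 1 are Rbm genes, and 62 genes past the threshold lie below 0.

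The direction held under the other scalings of the arrays, each run after the same background offset was added to the pachytene values. The deposited scale here therefore means deposited values with that offset in the pachytene arrays. Quantile normalization without the offset gave 23 rising and 62 falling members, and shares of all genes are not given for that fit. With median centring, the deposited scale and centring on hybridization controls, 72, 73 and 74 members fell and 13, 12 and 10 rose, while 44.0%, 46.4% and 48.1% of all genes fell and 45.5%, 40.3% and 32.8% rose. Past the threshold in 1 direction under all 4 scalings were 61 falling members and 10 rising ones, against 34.9% and 32.7% of all genes. Without the 3 young rats 62 fell and 24 rose, against 39.6% and 48.6% of all genes. The arrays of the cell types did not overlap for 39 falling members and 9 rising ones, against 20.8% and 29.0% of all genes.

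Most SR protein genes fell, and the shares of all genes given above are the background for this and each further class. Of 11 Srsf genes 9 fell and 2 rose, with a median of -0.70, and 10 fell under each of the other 3 scalings. The 2 that rose were Srsf10, described below, and the pseudogene symbol Srsf7-ps4 (0.10). The mean deposited log2 signal of Srsf7-ps4 was only 5.53, and Srsf3, which fell, was also dim (6.85). Srsf2, which encodes the SR protein SC35, had log2 signals of 10.25 to 11.07 (median 10.40) in round spermatids, against 12.36 to 12.87 (median 12.55) in pachytene spermatocytes. The cell types did not overlap, and the difference was 4.26-fold (log2 -2.09, SE 0.08, adjusted p = 8.89e-17). A further Srsf2 probe set gave only -0.04 and did not pass (adjusted p = 0.493), so the fall of Srsf2 rests on 1 of its 2 probe sets. Srsf11, an SR-related protein, fell 3.23-fold (-1.69, SE 0.06), with signals of 9.77 to 10.22 in round spermatids and 11.43 to 11.98 in pachytene spermatocytes. Its other probe set gave -1.51. Srsf10, an SR protein that can repress splicing when dephosphorylated, rose by 0.25 (SE 0.03) on its brightest probe set, but another of its 5 probe sets gave -2.96, and the mean of all 5 gave -0.60. The rise also turned to -0.26, -0.31 and -0.36 under the other 3 scalings, so no direction is given for this gene.

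Among 17 Hnrnp genes 12 fell and 5 rose (median -0.50), and the largest fall among the 92 genes was in this class. Under the other 3 scalings 13, 13 and 14 fell and 3 rose. Hnrnpa0, an AU-rich element binding protein, had signals of 8.81 to 9.95 (median 9.06) in round spermatids, against 12.23 to 12.83 (median 12.46) in pachytene spermatocytes. No round spermatid array came near the pachytene arrays, and the difference was 9.75-fold (log2 -3.28, SE 0.11, adjusted p = 4.46e-18). Hnrnpl, which binds CA-rich RNA, fell 4.18-fold (-2.07, SE 0.07), and its paralog Hnrnpll, known in mouse and human T cells for control of CD45 exons, fell 4.13-fold (-2.05, SE 0.05). Hnrnph1, which binds runs of G, also fell 4.18-fold (-2.06, SE 0.07). Hnrnpm and the nuclear scaffold protein gene Hnrnpu fell 2.91-fold and 2.30-fold. A further Hnrnpu probe set gave -2.10, while another gave 0.05 and did not pass (limma adjusted p = 0.586). In the other direction, Hnrnpa1, a classic repressor of splice sites, had 10.29 to 10.83 (median 10.42) in round spermatids and 9.42 to 10.19 (median 9.72) in pachytene spermatocytes. These ranges did not overlap, the rise was 1.65-fold (0.73, SE 0.05, adjusted p = 6.77e-12), and both of its other probe sets rose too (0.61 and 0.23). Hnrnpab rose 1.61-fold (0.69, SE 0.08), with overlapping arrays (11.45 to 11.97 in round spermatids, 10.57 to 11.76 in pachytene spermatocytes).

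The Sf3a and Sf3b genes encode the protein part of the U2 snRNP that holds the branch point, and the Snrp genes mostly the Sm ring and other snRNP proteins. Of 9 Sf3 genes 6 fell and 2 rose (median -0.22), and of 10 Snrp genes 8 fell and 1 rose (median -0.71). Under each of the other 3 scalings 8 Sf3 and 9 Snrp genes fell. Snrpb, which encodes the Sm ring protein SmB, had 9.45 to 10.40 (median 9.68) in round spermatids and 11.50 to 12.09 (median 11.76) in pachytene spermatocytes, without overlap. It fell 3.91-fold (-1.97, SE 0.09, adjusted p = 1.14e-15). Snrpn, a close relative, did not pass (0.04, adjusted p = 0.0582), and whether the probes tell the pair apart was not tested. Snrpd3 and Snrpd1, further Sm ring members, fell 2.12-fold and 2.00-fold. Sf3b3 fell 2.43-fold (-1.28, SE 0.04), and Sf3b1, which contacts the branch site, fell 1.71-fold (-0.77, SE 0.07). Sf3b4 rose by 0.41 (SE 0.04), a rise that was no longer called under the other 3 scalings and was -0.01 with centring on hybridization controls. Snrpa1, a U2 snRNP protein, rose by 0.15 (SE 0.04) and turned to -0.18, -0.23 and -0.29 under them.

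Of 11 Prpf genes, which encode snRNP-bound and catalytic core proteins, 10 fell and 1 rose (median -0.65). Prpf39, a U1 snRNP-associated factor, had 7.57 to 8.17 (median 7.80) in round spermatids, against 9.78 to 10.46 (median 10.01) in pachytene spermatocytes. The groups were far apart, with a 4.59-fold fall (-2.20, SE 0.06, adjusted p = 1.55e-19). Prpf8, the large scaffold of the catalytic centre, fell 2.21-fold (-1.14, SE 0.05), with 10.18 to 10.75 in round spermatids and 11.12 to 11.76 in pachytene spermatocytes. The 1 riser, Prpf40b, gained 0.21 (SE 0.03) and turned to -0.11, -0.16 and -0.21 under the other scalings.

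The Rbm genes were split. Of 34, 17 fell and 12 rose, with a median of -0.08, against 21 or 22 falling and 7 or 8 rising under the other 3 scalings, and all 4 members that rose at least 2-fold were of this class. Rbm5, which regulates splice site pairing and is needed for spermatid development in mice, had 10.11 to 10.87 (median 10.24) in round spermatids, against 11.96 to 12.30 (median 12.24) in pachytene spermatocytes. It fell 3.65-fold without overlap (-1.87, SE 0.06, adjusted p = 3.61e-18), and both of its other probe sets fell (-1.43 and -0.89). Its homologue Rbm10, on the X chromosome, went the other way, with 9.62 to 10 (median 9.81) in round spermatids and 7.58 to 8.88 (median 7.88) in pachytene spermatocytes. The rise of Rbm10 was 3.49-fold (1.80, SE 0.09, adjusted p = 3.49e-15), and every round spermatid array lay above every pachytene array. Its second, dimmer probe set gave 0.08, and the mean of both probe sets gave 0.94.

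Rbm4, an alternative splicing regulator, had 11.88 to 12.33 (median 12.15) in round spermatids and 9.69 to 11.64 (median 9.93) in pachytene spermatocytes. It rose 3.83-fold (1.94, SE 0.15, adjusted p = 2.51e-11), and its close paralog Rbm4b rose by 0.41 (SE 0.04) under quantile normalization but was lower in round spermatids, by -0.14, -0.19 and -0.25, under the other 3 scalings. Whether the probes tell these paralogs apart was not tested. Rbm18 rose 4.10-fold (2.03, SE 0.10, adjusted p = 9.23e-15), with 10.79 to 11.29 (median 11.05) in round spermatids and 8.69 to 9.99 (median 8.82) in pachytene spermatocytes. Its second probe set rose by 0.46. Rbm7, part of a nuclear complex that delivers RNA to the exosome, rose 2.43-fold (1.28, SE 0.08), and its second probe set rose by 0.70.

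Rbm3, a cold-inducible RNA-binding protein gene and the other X-linked member, fell 4.85-fold (-2.28, SE 0.14, adjusted p = 2.37e-13). It had 7.72 to 9.32 (median 8.65) in round spermatids and 9.78 to 12.12 (median 10.94) in pachytene spermatocytes, the widest pachytene range among the genes plotted by array. Genes of the X chromosome are as a rule silenced in pachytene spermatocytes and partly active again in round spermatids. The 2 X-linked members thus lay on opposite sides. Of 10 Sertoli cell markers 8 were lower and 2 higher in round spermatids, with a median of -1.52, and their part in the difference of Rbm3 was not tested.

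**Figure D2:**
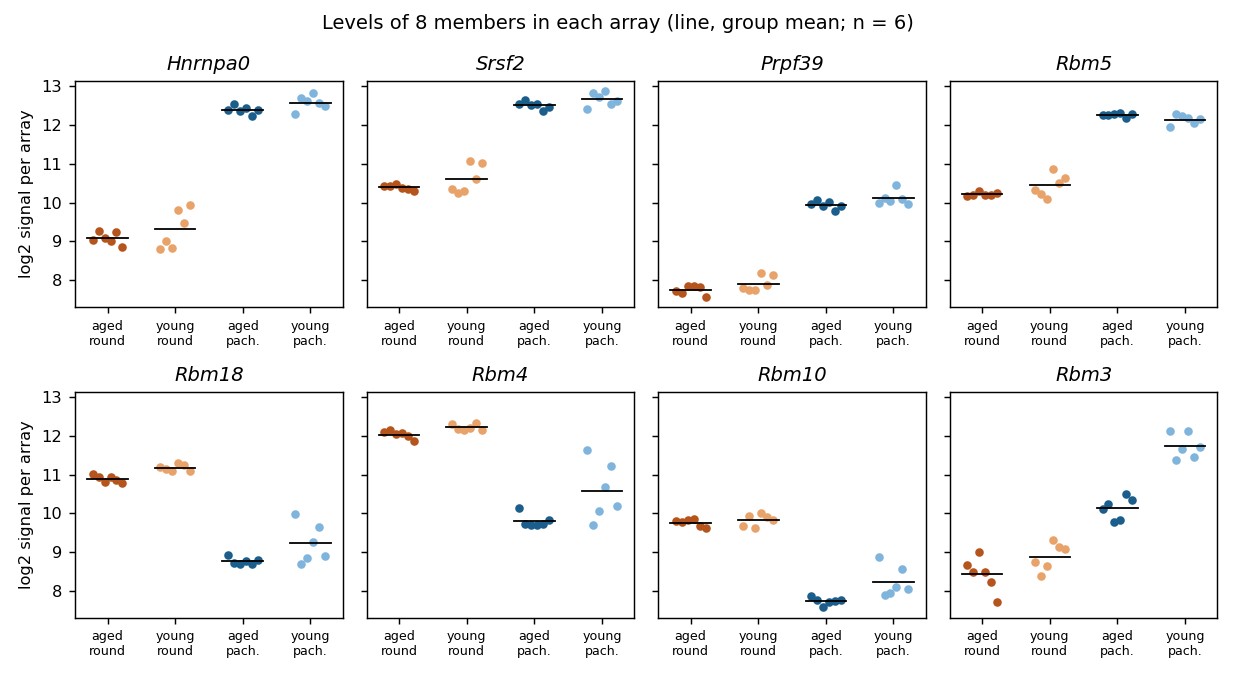
Normalized log2 signal (y axis) of 8 genes in each array, by group (x axis; 6 arrays per group, line at the group mean). Hnrnpa0, Srsf2, Prpf39 and Rbm5 lie lower in all round spermatid arrays, Rbm18, Rbm4 and Rbm10 lie higher in them, and Rbm3 is lower in round spermatids and, in pachytene spermatocytes, lower in aged than in young rats.

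Probe sets of a gene did not always go together. Of 62 further probe sets of the members, 48 were past the threshold along with the one chosen, 37 in its direction and 11 in the opposite one. Rbm20, the titin splicing factor of the heart, rose by 0.99 on the chosen probe set and fell by 1.67 on the other. Rbm26 rose by 0.49 on one and fell by 1.42 and 0.43 on the others, Hnrnpdl fell by 0.50 and 1.35 and rose by 0.77, and Rbm27 gave -1.93 and 0.73 on 2 probe sets while the chosen one (0.28) did not pass. When all probe sets of a gene were averaged, 69 members fell and 20 rose, and Rbm20 and Rbm26 turned to -0.34 and -0.46. Shares of all genes are not given for this setting, so these counts have no background here.

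The other splicing genes examined, 130 measured genes taken from a list without members, moved the same way: 94 fell and 28 rose in round spermatids (median -0.49). These were 72.3% and 21.5% of them, against 39.1% and 49.2% of all genes. Of 53 further core spliceosome genes 43 fell and 9 rose, of 61 regulators 42 fell and 13 rose, and of 16 snRNP assembly genes 9 fell and 6 rose. Pcbp1, a poly(C)-binding protein, fell 6.20-fold (log2 -2.63, SE 0.07), Khdrbs1, known as Sam68 and needed for male fertility in mice, fell 6.14-fold (-2.62, SE 0.08), and the paraspeckle protein gene Pspc1 fell 5.83-fold (-2.54, SE 0.06). Luc7l2, a U1 snRNP-associated factor, fell 5.24-fold. The largest rises were those of Gemin4 (3.53-fold) and Gemin8 (3.15-fold), parts of the SMN complex that loads Sm rings, Pcbp4 (3.08-fold) and Rbfox2 (2.98-fold).

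Promoters are shown for genes at both ends of this comparison and for the X-linked pair, to show what their upstream bases hold. The bases before the gene's start were read from RefSeq promoters of build GRCr8, 5′ to 3′ on the gene's strand, up to 250 bases, and shortened where the annotated gene begins earlier. Capitals mark TGACG, the half-site of the cAMP response element, and CCGGAA, the core of ETS sites, on either strand.
Hnrnpa0 promoter (chr17:6512879-6513128, plus strand): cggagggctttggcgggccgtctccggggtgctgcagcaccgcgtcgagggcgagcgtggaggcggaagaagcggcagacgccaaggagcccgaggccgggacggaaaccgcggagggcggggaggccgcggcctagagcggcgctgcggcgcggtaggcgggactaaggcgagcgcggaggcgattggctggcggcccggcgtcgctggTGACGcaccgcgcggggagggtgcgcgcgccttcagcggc
Srsf2 promoter (chr10:102554201-102554391, minus strand): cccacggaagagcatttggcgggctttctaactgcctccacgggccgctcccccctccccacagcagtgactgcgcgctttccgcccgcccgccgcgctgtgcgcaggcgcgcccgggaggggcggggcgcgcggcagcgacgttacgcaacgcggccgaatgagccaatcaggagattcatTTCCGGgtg
Rbm18 promoter (chr3:39884578-39884827, minus strand): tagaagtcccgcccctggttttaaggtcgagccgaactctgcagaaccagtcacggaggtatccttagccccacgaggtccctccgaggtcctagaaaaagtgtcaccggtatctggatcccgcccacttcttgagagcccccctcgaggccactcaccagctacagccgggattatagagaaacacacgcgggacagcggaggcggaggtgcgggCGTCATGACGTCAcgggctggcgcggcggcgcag
Rbm10 promoter (chrX:4126061-4126274, minus strand): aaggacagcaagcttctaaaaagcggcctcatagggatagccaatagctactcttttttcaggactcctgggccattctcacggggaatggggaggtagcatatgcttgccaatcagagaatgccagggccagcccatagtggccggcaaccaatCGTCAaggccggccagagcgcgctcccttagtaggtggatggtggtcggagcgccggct
Rbm3 promoter (chrX:17020655-17020862, plus strand): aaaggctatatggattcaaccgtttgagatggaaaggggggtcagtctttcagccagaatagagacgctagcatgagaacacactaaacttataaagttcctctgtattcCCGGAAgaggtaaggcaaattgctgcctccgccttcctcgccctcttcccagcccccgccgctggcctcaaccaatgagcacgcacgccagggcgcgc
The 7 motifs were searched on both strands of the whole 250 bases before the start that the table uses. TGACG stood in 50% of the 84 member promoters held there, against 25.8% of 11700 promoters of measured genes and 19.0% of all 27457. CCGGAA stood in 42.9%, against 21.1% and 13.4%. The Myb core AACGG stood in 33.3%, against 18.4% and 14.6%, and the CCAAT box in 47.6%, against 35.1% and 34.3%. The GC box GGGCGG stood in 50% of member promoters and the TATA box TATAAA in 7.14%, against 54.2% and 8.06% of those of measured genes. Mean GC content was 59.3% in members and 59.1% in measured genes. The 58 promoters of falling members held CCGGAA in 50% and the 19 of rising members in 26.3%, while TGACG stood in 48.3% and 52.6%. Among member promoters the full cAMP response element TGACGTCA, which contains TGACG, stood only in that of Rbm18 (1.19%, against 2.64% of measured genes). These are matches of letters and show no binding.

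The second comparison asked how age changed these genes in pachytene spermatocytes. In aged rats 19 members were higher and 16 lower, with 57 not past the threshold (limma, 6 arrays per age). Among all genes 25.5% were called higher and 19.0% lower, so the shares of members, 20.7% and 17.4%, lay near or below the background. Their median change was 0.03, against 0.05 over all genes. These counts depended on the scaling: 46 higher and 7 lower with median centring, 3 and 46 on the deposited scale, and 8 and 16 with centring on hybridization controls, against 37.7% and 16.8%, 6.70% and 55.8%, and 11.1% and 29.3% of all genes, whose median shifted by 0.13, -0.25 and -0.13. Without young rats 1, 10 and 11 the counts were 12 higher and 10 lower, against 17.4% and 12.8% of all genes. Leaving out 1 rat at a time gave 8 to 18 lower members, with 8 without young rat 10, 9 without young rat 11 or aged rat 8, 9 or 10, and 10 without aged rat 5. Shares of all genes are not given for these fits, so the swings are not read as particular to the members. The arrays of the ages did not overlap for 15 higher and 7 lower members, against 16.7% and 10% of all genes.

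Under all 4 scalings 6 members were lower and 3 higher in aged pachytene spermatocytes, against 15.6% and 6.61% of all genes. Rbm3 changed most, with 9.95 to 10.65 (median 10.33) in aged rats, against 11.44 to 12.10 (median 11.71) in young rats. No aged array reached the lowest young one, and the fall was 2.75-fold (log2 -1.46, SE 0.15, limma adjusted p = 0.000231). It was -1.35 without the 3 young rats and ranged from -1.60 to -1.22 over all alternatives. The summed signal of 10 Sertoli cell markers was also lower in the aged pachytene fractions (14.17 to 14.65 on the log2 scale, against 15.26 to 15.96 in young ones, 8 lower and 0 higher), and its part in the fall of Rbm3 was not tested.

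Rbm10 had 6.67 to 7.28 (median 7.02) in aged and 7.28 to 8.92 (median 7.64) in young pachytene spermatocytes. The groups touched but did not overlap, and the fall was 1.85-fold (-0.89, SE 0.24, adjusted p = 0.0135), which became -0.42 (adjusted p = 0.0163) without the 3 young rats. The second Rbm10 probe set gave 0.03 (adjusted p = 0.783). Hnrnpa1 had 9.55 to 9.81 (median 9.71) in aged and 9.96 to 10.36 (median 10.12) in young rats, without overlap. It fell 1.37-fold (-0.45, SE 0.08, adjusted p = 0.00218), both of its other probe sets fell (-0.69 and -0.78), and the change was -0.29 without the 3 young rats. Hnrnpab fell 1.46-fold (-0.55, SE 0.12), and the Sm ring gene Snrpf fell 1.48-fold (-0.57, SE 0.11), with 10.83 to 11.31 in aged and 11.32 to 11.96 in young rats. Both still passed without the 3 young rats, at -0.29 and -0.37. Rbm7 and Rbm4 fell by 0.53 and 0.73. Neither passed without the 3 young rats (-0.17, adjusted p = 0.145, and -0.18, adjusted p = 0.317), and the fall of Rbm4 also failed without young rat 1 alone. All 8 late spermiogenesis markers were lower in aged pachytene fractions (summed log2 signal 16.42 to 16.91, against 16.83 to 17.65 in young ones), and their part in these changes was not tested.

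By class, 7 of 17 Hnrnp genes were lower and 1 higher in aged pachytene spermatocytes, against 19.0% and 25.5% of all genes. But with median centring 6 were higher and 2 lower, against 37.7% and 16.8% of all genes. Without the 3 young rats 3 were lower and 0 higher, against 12.8% and 17.4% of all genes. The other classes had 2 higher and 1 lower of 11 Srsf, 1 and 1 of 9 Sf3, 2 and 2 of 10 Snrp, 3 and 0 of 11 Prpf and 10 and 5 of 34 Rbm genes. On the deposited scale more were lower than higher in each of these, as among all genes (55.8% lower and 6.70% higher).

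Genes higher in aged pachytene spermatocytes under all 4 scalings were Rbm11, Rbm20 and Rbm44. Rbm11, a splicing regulator of brain and testis, had 9.97 to 10.15 (median 10.06) in aged rats and 8.69 to 9.81 (median 9.53) in young ones, and every aged array lay above the young ones. Its rise was 1.55-fold (0.63, SE 0.16, adjusted p = 0.00942), and 0.30 (adjusted p = 0.00199) without the 3 young rats. Rbm20 had 8.80 to 9.01 in aged and 7.98 to 8.53 in young rats and rose 1.54-fold (0.62, SE 0.10, adjusted p = 0.000803) on the chosen probe set, while its other probe set did not pass (0.26, adjusted p = 0.21). Rbm44, a protein of the bridges between germ cells in mice, rose by 0.37 (SE 0.13) and did not pass without the 3 young rats (0.11, adjusted p = 0.149).

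Among the other splicing genes 31 of 130 were higher and 23 lower in aged pachytene spermatocytes, against 25.5% and 19.0% of all genes. With median centring 65 and 16 of the 130 passed (37.7% and 16.8% of all genes). On the deposited scale 8 and 55 passed (6.70% and 55.8%), and with hybridization controls 20 and 30 (11.1% and 29.3%). Of the muscleblind splicing regulators, Mbnl2 fell by 1.04 (SE 0.17) and Mbnl3, on the X chromosome, by 1.09 (SE 0.25). Nono, a paraspeckle protein gene on the X chromosome, fell 2.16-fold (-1.11, SE 0.19) and Celf2 1.74-fold (-0.80, SE 0.10). Mbnl2, Mbnl3, Nono and Celf2 stayed past the threshold without the 3 young rats (-0.82, -0.69, -0.80 and -0.67). Their aged and young arrays did not overlap, and as for Rbm3 the part of the Sertoli cell signal was not tested. Higher were Dhx38 (0.65, SE 0.12), an ATPase of the second splicing step, Gemin7 (0.56), Wdr77 (0.51) and Eftud2 (0.47), a GTPase of the U5 snRNP, but without the 3 young rats Dhx38, Gemin7 and Eftud2 gave 0.39, 0.34 and 0.18, still past the threshold, and Wdr77 did not pass (0.09, adjusted p = 0.175).

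The third comparison concerned age in round spermatids, where 16 members were higher in aged rats and 10 lower, with 66 not past the threshold (limma, 6 arrays per age), against 12.5% and 12.4% of all genes. The median change was 0.00 for members and for all genes. On the deposited scale 53 were higher and 0 lower (50.7% and 3.69% of all genes), and with centring on hybridization controls 50 and 0 (33.7% and 2.34%), while all genes shifted by 0.15 and 0.18. With median centring 8 were higher and 2 lower (7.74% and 8.53%). The arrays of the ages did not overlap for 6 higher and 3 lower members, against 6.41% and 5.28% of all genes. Without the 3 young rats 4 were higher and 1 lower, against 4.67% and 3.65% of all genes. Leaving out 1 rat at a time gave 10 to 21 higher members, with 10 without young rat 11 or aged rat 9 or 10. The lower members then numbered 3 to 17, with 17 without young rat 3, 6 without aged rat 3, 5 or 8, 5 without young rat 11 or 13, 4 without aged rat 9 and 3 without aged rat 10. For these fits too, shares of all genes are not given. No member changed 1.5-fold, against 0.689% of all genes called higher and 1.16% lower at that size.

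Genes higher in aged round spermatids under all 4 scalings were Prpf8, Hnrnpm, Snrpb2, Rbm11, Rbm33 and, named after its values were seen, Sf3a3 (7.22% of all genes), and no member was lower under all 4 (2.29%). Prpf8 had 10.21 to 10.55 (median 10.38) in aged and 9.92 to 10.20 (median 10.02) in young rats. The arrays did not overlap, and the rise was 1.28-fold (0.35, SE 0.06, adjusted p = 0.00269). Hnrnpm rose 1.24-fold (0.31, SE 0.06, adjusted p = 0.0051), with 9.60 to 9.86 in aged and 9.22 to 9.59 in young rats. Snrpb2, another U2 snRNP protein, rose by 0.32 (SE 0.08) and Rbm11 by 0.39 (SE 0.10). Sf3b1 had the largest rise by quantile normalization (0.48, SE 0.13, adjusted p = 0.0233), with overlapping arrays (12.52 to 12.82 in aged, 11.59 to 12.62 in young rats). Its other probe sets gave 0.24 and -0.04, and neither passed (limma adjusted p = 0.17 and 0.517). Without the 3 young rats Prpf8, Hnrnpm and Rbm33 still passed (0.27, 0.21 and 0.18), while Snrpb2, Rbm11 and Sf3b1 did not (adjusted p = 0.154, 0.103 and 0.0884). The second, dimmer Rbm33 probe set gave -0.03 in the main fit and did not pass (limma adjusted p = 0.751).

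By class, 4 of 9 Sf3 genes were higher and 0 lower in aged round spermatids, against 12.5% and 12.4% of all genes. The other classes had 3 and 0 of 11 Prpf, 3 and 3 of 17 Hnrnp, 1 and 2 of 10 Snrp, 0 and 1 of 11 Srsf and 5 and 4 of 34 Rbm genes. The Sf3 count was 9 higher with hybridization controls or deposited values, where 33.7% and 50.7% of all genes were higher. It was 1 with median centring or without the 3 young rats, where 7.74% and 4.67% of all genes were higher.

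Pachytene markers were higher in the aged round spermatid fractions too: 4 of 7 rose, none fell, and their summed log2 signal was 14.45 to 14.75 in aged rats against 13.75 to 14.34 in young ones. Prpf8, Hnrnpm, Snrpb2, Rbm11, Sf3a3 and Sf3b1 are also among the genes lower in round spermatids than in pachytene spermatocytes, as were 67.4% of all members. Rbm33 was higher there by quantile normalization (0.12, SE 0.04) but lower under the other 3 scalings (-0.35, -0.40 and -0.46). Of the genes named next as lower with age, Hnrnph1 was also lower in round spermatids (-2.06), while Rbm18 and Rbm47 were higher (2.03 and 0.41). The part of pachytene RNA in these age changes was not tested. Lower in aged round spermatids were Hnrnph1 (-0.41, SE 0.13, adjusted p = 0.0425), Rbm18 (-0.33, SE 0.05, adjusted p = 0.00213) and Rbm47 (-0.27, SE 0.05), a cofactor of RNA editing. The second Rbm47 probe set gave 0.05 and did not pass (limma adjusted p = 0.36). Without the 3 young rats Rbm18 still passed (-0.25, adjusted p = 0.0239), while Hnrnph1 (-0.35, adjusted p = 0.161) and Rbm47 (-0.18, adjusted p = 0.0578) did not, and Hnrnph1 lost its call under 14 of 22 alternatives. Rbm18 had 10.59 to 10.84 in aged and 10.93 to 11.16 in young rats, without overlap, but its change was -0.04 when centred on hybridization controls, -0.08 on the deposited scale and -0.21 with median centring, none of them past the threshold, and its second probe set gave 0.11. Among the other splicing genes 34 of 130 were higher and 18 lower, against 12.5% and 12.4% of all genes. With median centring 22 and 7 of the 130 passed (7.74% and 8.53% of all genes). On the deposited scale 75 and 4 passed (50.7% and 3.69%), and with hybridization controls 67 and 3 (33.7% and 2.34%). The calls by quantile normalization included rises of the methylosome gene Wdr77 (0.84, SE 0.15), Pcbp3 (0.61, SE 0.12), the polypyrimidine tract binding protein gene Ptbp1 (0.57, SE 0.09) and Lsm3 (0.48, SE 0.09). Falls were those of Pcbp4 (-0.63, SE 0.15), Clk2 (-0.58, SE 0.15), a kinase of SR proteins, Gemin4 (-0.38, SE 0.06) and Srpk2 (-0.34, SE 0.06). Clk2 did not pass without the 3 young rats (-0.40, adjusted p = 0.0653), and Pcbp3, Ptbp1 and Pcbp4 then gave 0.38, 0.38 and -0.39.

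**Figure D3:**
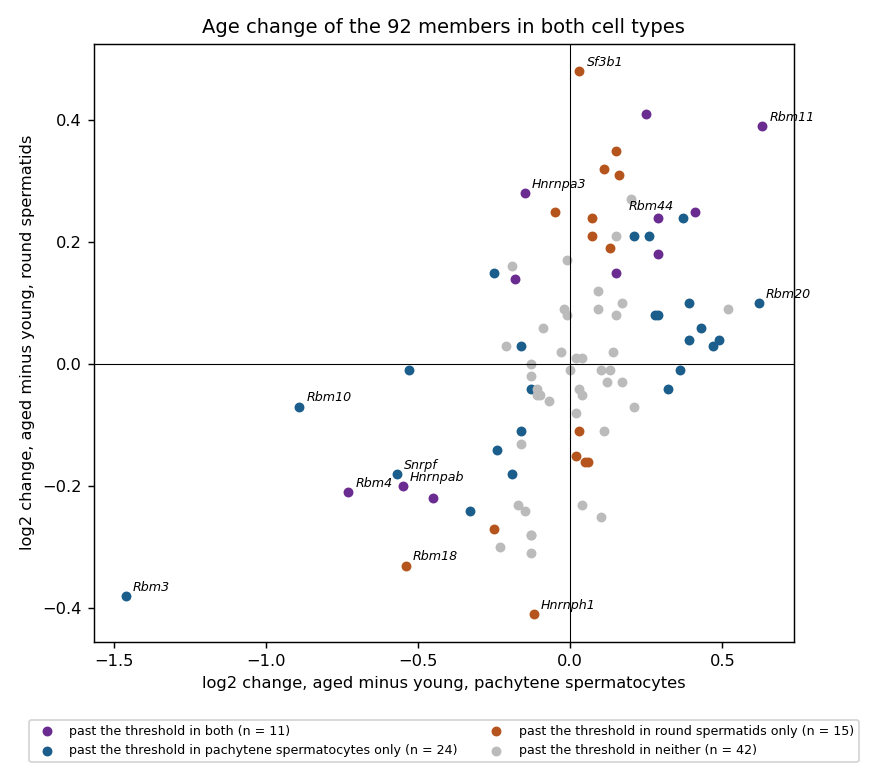
Log2 change with age (aged minus young, 6 arrays per age) of the 92 genes in pachytene spermatocytes (x axis) and round spermatids (y axis), after quantile normalization. Colours mark where a gene passed the threshold (11 in both, 24 and 15 in one cell type, 42 in neither), and Rbm3 lies farthest from the origin.

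The difference of the age effect between cell types was tested on all 24 arrays as an interaction. The background offset was again added to the pachytene values under each of the 4 scalings, the deposited scale included. In 6 members the age effect was higher in round spermatids than in pachytene spermatocytes and in 4 lower. These were 6.52% and 4.35% of members, against 7.36% and 8.81% of all genes, and counts this small do not set the members apart from the background. Without the 3 young rats 4 were higher and 7 lower (4.35% and 7.61%), against 5.33% and 5.69% of all genes. On the deposited scale 68 were higher and 0 lower (76.1% and 0.134% of all genes), and with hybridization controls 40 and 0 (32.4% and 0.134%), where the median of all genes was 0.30 and 0.22, while with median centring 5 were higher and 6 lower (11.6% and 19.3%). The lower members numbered 11 without young rat 2, 8 without young rat 3, and 2 without aged rat 5 or 8, counts for which shares of all genes are not given. Rbm3 differed most, by 1.14 (SE 0.27, adjusted p = 0.00885): its change with age was -0.38 (SE 0.16, adjusted p = 0.135) in round spermatids and -1.46 in pachytene spermatocytes. Its round spermatid signals overlapped between ages (7.70 to 8.71 in aged, 8.19 to 9.02 in young rats). Snrpf differed by 0.47 (SE 0.15, adjusted p = 0.0348), with changes of -0.18 and -0.57, and this was not past the threshold without the 3 young rats (0.24, adjusted p = 0.286). Only these 2 members passed in 1 direction under all 4 scalings, against 5.70% of all genes higher and 0.12% lower.

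Hnrnpa3 differed by 0.40 (SE 0.08), with 0.28 in round spermatids and -0.15 in pachytene spermatocytes, and its 4 other probe sets differed in the same direction (0.33, 0.37, 0.51 and 0.53, each past the threshold). In aged round spermatids 1 of these 4 fell by 0.22, while in aged pachytene spermatocytes all 4 fell, by 0.74 to 0.96. Sf3b6, which touches the branch point adenosine, differed by 0.42 (SE 0.09), and Rbm17 by 0.32 (SE 0.06). Snrpa1 (-0.38, SE 0.07), Rbm20 (-0.33, SE 0.08) and Rbm19 (-0.32, SE 0.09) lay on the other side by quantile normalization and turned positive on the deposited scale. The other Rbm20 probe set gave -0.06 and did not pass (limma adjusted p = 0.819). Without the 3 young rats the differences of Hnrnpa3, Sf3b6 and Rbm17 were 0.23, 0.28 and 0.19, and those of Snrpa1, Rbm20 and Rbm19 were -0.20, -0.28 and -0.19, all still past the threshold. Among the other splicing genes 10 of 130 were higher and 7 lower, against 7.36% and 8.81% of all genes. On the deposited scale 90 and 0 passed, against 76.1% and 0.134% of all genes. By quantile normalization Mbnl2 (0.60, SE 0.16), Mbnl1 (0.59, SE 0.16) and the SR protein kinase gene Clk1 (0.48, SE 0.12) lay at one end and Tial1 (-0.62, SE 0.14) at the other. Mbnl1 did not pass without the 3 young rats (0.55, adjusted p = 0.108), and Clk1 and Tial1 then gave 0.30 and -0.28.

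**Figure D4:**
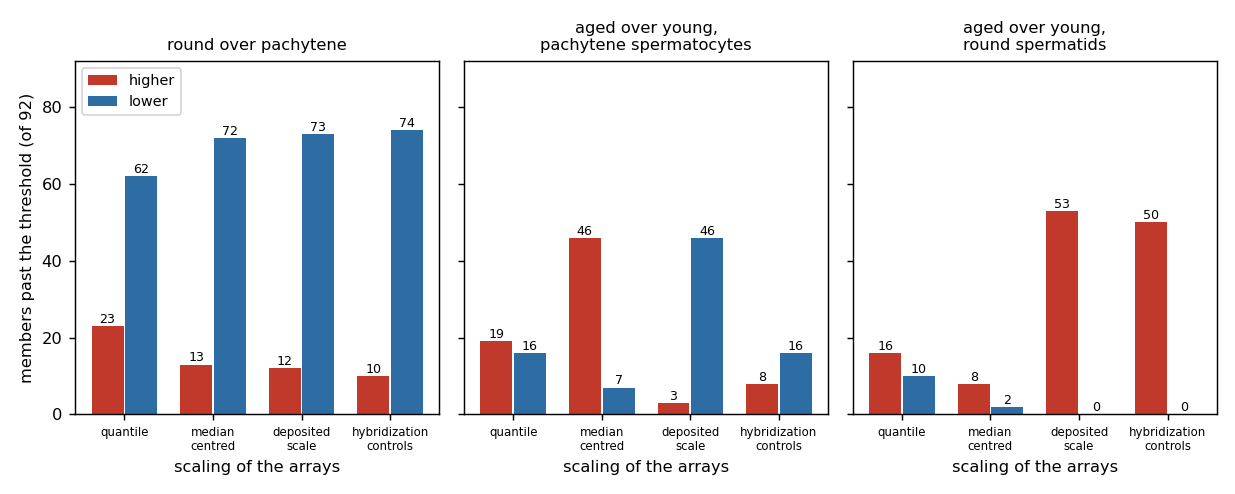
Number of the 92 genes past the threshold, higher (red) and lower (blue), under 4 scalings of the arrays (x axis), for round over pachytene and for aged over young in each cell type. For round over pachytene the background offset was added to the pachytene values under each scaling. Between cell types lower calls outnumber higher ones under each scaling. Among all genes they do so only on the deposited scale (46.4% against 40.3%) and with hybridization controls (48.1% against 32.8%). In pachytene spermatocytes the age counts turn from 46 higher and 7 lower with median centring to 3 higher and 46 lower on the deposited scale. All genes turn likewise, from 37.7% higher and 16.8% lower to 6.70% and 55.8%.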

How the data were processed

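Total RNA of 24 cell fractions was measured on Affymetrix rat arrays. The authors deposited 1 series-wide table of log2 values per probe set, and no source used here names the program that summarised the probes. Control probe sets (57) were left out, which left 31042. Age comparisons were quantile normalized within each cell type. The pachytene arrays reached lower values than the round spermatid arrays, so for comparisons between cell types 89.2 was added to their linear values, matched on 27 bacterial controls, before quantile normalization of all arrays. The same offset was added before each of the other scalings of these comparisons, so their deposited scale holds deposited values with the offset. Comparisons between cell types therefore do not equal the difference of the separate age fits.

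Fits used limma 3.58.1 (R 4.3.3; lmFit and eBayes) with Benjamini-Hochberg adjustment over all probe sets and a threshold of 0.05, and were tested on simulated data. Counts over all genes use 1 probe set per gene. Python 3.11.15, pandas 2.3.3 and matplotlib 3.10.9 made tables and plots. The p-values measure the spread between 6 rats per age, whose number limits the precision.

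Genes were named by rule: up to 10 per direction and comparison with the largest change past the threshold, the 3 brightest per cell type, the X-linked ones, class extremes, and up to 4 with opposing probe sets, plus up to 4 other splicing genes per direction. Members and lists were chosen with earlier results of these data known. Numbers in the sample titles were read as rats: a rat's 2 fractions deviated together with correlations of -0.07 to 0.36, and 6 of 12 rats matched best with their own fraction. The main comparisons had no rat block. Alternatives comprised other scalings, no offset, leaving out rats, dim probe sets or young rats 1, 10 and 11, the mean of a gene's probe sets, other variance settings and a 1.5-fold minimum. An offset set on 45 controls was added after seeing the data.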

Additional observations from a re-analysis of the deposited data

Results flagged for a closer look

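In 13 of 220 groups of 6 arrays, 1 array lay apart from the others by Dixon's test, and chance alone gives about 1 in 20. In aged pachytene spermatocytes these were Hnrnpll in rat 3 (log2 signal 11.57, nearest other 11.35), Prpf8 in rat 5 (11.78, nearest 11.72), Rbm4 and Rbm7 in rat 2 (10.29 and 8.21, nearest 9.99 and 7.97) and Snrpd1 in rat 10 (9.24, nearest 8.36). In young pachytene spermatocytes they were Hnrnpm, Hnrnpu and Sf3b1 in rat 1 (11.03, 13.01 and 12.84, nearest 11.36, 13.20 and 13.12) and Prpf39 in rat 10 (10.61, nearest 10.28). In aged round spermatids Rbm15 and Rbm39 were low in rat 2 (10.34 and 10.97, nearest 10.54 and 11.17). In young round spermatids Rbm38 was high and Sf3b6 low in rat 10 (9.26 and 11.40, nearest 8.87 and 11.74).

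The age effect differed between round spermatids and pachytene spermatocytes by the interaction test for 10 members (limma, adjusted p). Of these 6 were higher and 4 lower, against 7.36% and 8.81% of all genes. It was higher in round spermatids for Rbm3 (1.14, adjusted p = 0.00885), Snrpf (0.47, 0.0348), Sf3b6 (0.42, 0.00329), Hnrnpa3 (0.40, 0.00368), Rbm8a, an exon junction complex gene (0.35, 0.0437), and Rbm17 (0.32, 0.00144). It was lower for Snrpa1 (-0.38, 0.00242), Rbm20 (-0.33, 0.00872), Rbm19 (-0.32, 0.0183) and Prpf40b (-0.16, 0.0472). Rbm8a did not pass without young rats 1, 10 and 11 (0.08, limma adjusted p = 0.59) or on its other probe set (0.07, adjusted p = 0.363). It kept its call under 13 of 24 alternatives. Prpf40b kept its call under 8 of 24 and passed in the other direction on the deposited scale (0.26, limma adjusted p = 0.00924).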

How the results depend on the processing

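Counts of genes higher and lower in round spermatids than in pachytene spermatocytes were 13, 12 and 10 higher under median centring, the deposited scale and hybridization control centring, with the lower counts within 1.5 times of 62, and 8 and 39 with a 1.5-fold minimum. Leaving out 1 rat gave 22 to 24 higher and 61 to 63 lower. Age counts in pachytene spermatocytes (higher, lower) were 46 and 7 with median centring, 3 and 46 with deposited values, 8 and 16 with hybridization controls, 12 and 10 without young rats 1, 10 and 11, and 2 and 3 with 1.5-fold. Leaving out 1 rat gave 16 to 21 and 8 to 18. In round spermatids they were 8 and 2, 53 and 0, 50 and 0, 4 and 1, and 0 and 0 under the same settings, with 5 lower when eBayes used a trend and robust variances. Leaving out 1 rat gave 10 to 21 and 3 to 17. For the difference of the age effects they were 68 and 0 (deposited), 40 and 0 (hybridization controls), 4 and 7 without the 3 rats (5.33% and 5.69% of all genes), and 1 and 0 with 1.5-fold. Leaving out 1 rat gave 4 to 9 and 2 to 11. The cause of these shifts was not tested. Shares of all genes under the other scalings and without the 3 rats are given with the results above. They are not given for the fits without 1 rat or with trend and robust variances. With the 1.5-fold minimum they are given only for age in round spermatids. Counts without such a share have no background here.

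With the rat as a replicate block (consensus correlation 0.060) the cell type counts were 24 and 62 and those of the age difference 7 and 6. Rat numbers 2, 3 and 10 occur at both ages, but same-numbered rats did not deviate together (correlations of -0.58 to 0.02), so the numbers do not pair them. A block on these numbers, with 3 rats per age, gave 0 higher and 1 lower in pachytene spermatocytes and 0 and 0 in round spermatids. Shares of all genes are not given for either block.

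Single genes that changed sign were as follows. With median centring, age in pachytene spermatocytes gave Hnrnpa3 0.18, Hnrnpdl 0.15, Rbm17 0.14 and Sf3b6 0.06, and Srsf7 gave -0.00 on the deposited scale and Rbm26 -0.10 as the mean of its probe sets. Age in round spermatids gave Snrpd3 0.02 with median centring. It gave Hnrnpa1 0.04, Rbm4b 0.08, Snrpd3 0.15 and Srsf10 0.10 on the deposited scale. With hybridization controls it gave Hnrnpa1 0.08, Hnrnpab 0.03, Rbm4b 0.12, Snrpd2 0.01, Snrpd3 0.19 and Srsf10 0.14. Means of probe sets gave Hnrnpa3 -0.03, Hnrnpu -0.02 and Rbm39 -0.01. Between cell types, median centring, the deposited scale and hybridization controls gave Hnrnpd -0.05, -0.10 and -0.15, Prpf40b -0.11, -0.16 and -0.21, Rbm33 -0.35, -0.40 and -0.46, Rbm4b -0.14, -0.19 and -0.25, Snrpa1 -0.18, -0.23 and -0.29, and Srsf10 -0.26, -0.31 and -0.36. Sf3b4 gave -0.01 with hybridization controls. Means of probe sets gave Rbm20 -0.34, Rbm26 -0.46, Rbm33 -0.07 and Srsf10 -0.60, and aged rats alone gave Sf3b6 0.06 and Snrpa1 -0.04. The age difference on the deposited scale gave Dhx8 0.21, Prpf40b 0.26, Raly 0.12, Rbm19 0.10, Rbm20 0.15, Safb 0.05 and Snrpa1 0.06, and with hybridization controls Dhx8 0.14, Prpf40b 0.19, Raly 0.05, Rbm19 0.03 and Rbm20 0.07. The cause of these changes was not tested.

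Signal over background limits dim probe sets: the 1st percentile of the deposited values was 6.38 to 6.62 in round spermatid arrays and 3.77 to 4.02 in pachytene arrays, so low values cannot be compared between cell types without the offset.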
